A study of Mus musculus with 6 samples.

Results

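The 10 CC chemokine genes described here are Ccl2, Ccl3, Ccl4, Ccl5, Ccl6, Ccl7, Ccl8, Ccl9, Ccl11 and Ccl12. They were chosen by gene symbol from the 33924 genes of a total RNA sequencing table of mouse RPE/choroid, and all 10 were found in it and had an adjusted p. RPE/choroid is the retinal pigment epithelium, a single layer of pigmented cells that supports the photoreceptors, with the blood vessel-rich choroid on which it rests. The young group was 3 C57BL/6J libraries labelled as 1 to 2 months old. The aged group was 3 C57BL/6J libraries, given as 20 to 24 months in the titles and 22 to 24 months in another label. Every mouse was labelled male, whereas the study's methods name both sexes and an older range for the young mice, so sex and the young age are uncertain. The labels name no transgene and no treatment. The tissue was scraped from the eyecup, and a pair of eyes made each sample. Every cell type of the RPE, the choroid and its blood could thus contribute RNA, as could neural retina left behind.

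CC chemokines are small secreted proteins named for a pair of adjacent cysteines near the start of the mature chain. They bind G protein-coupled receptors on leukocytes and draw these cells along a concentration gradient into tissue. Several of them, Ccl2 above all, are known for the recruitment of monocytes and macrophages to the RPE and choroid in injury and ageing.

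In these data 5 of the 10 genes rose in aged mice and none fell. Ccl8, a ligand of Ccr8 in the mouse, rose 13.2-fold and went from a minor to a major transcript among the 10. Ccl3 and Ccl5, which both bind Ccr1, rose 3.80-fold and 3.52-fold from low levels. Ccl6, a ligand of Ccr1, rose 1.97-fold from an already high level, and Ccl2, the classical ligand of Ccr2, rose 1.88-fold with an adjusted p close to the threshold. The other 5, Ccl4, Ccl7, Ccl9, Ccl11 and Ccl12, did not pass the test. A gene was said to rise or fall where the adjusted p of DESeq2 in the deposited table was under 0.05. Among all 18636 genes tested, 21.2% passed that threshold in either direction, 11.3% higher and 9.92% lower in aged mice.

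All 10 genes lie on chromosome 11 in the mouse build GRCm38 and form a pair of groups. The group from Ccl2 to Ccl8 holds Ccl2, Ccl7, Ccl11, Ccl12 and Ccl8 within 81.2 kb, between bases 82035571 and 82116799, all on the plus strand and with no other coding gene between them. The group from Ccl5 to Ccl4 holds Ccl5, Ccl9, Ccl6, Ccl3 and Ccl4 within 138.9 kb, between bases 83525778 and 83664683. Of these 5, only Ccl4 is on the plus strand, and 1 other coding gene lies among them, between Ccl6 and Ccl3. The groups are separated by 1409.0 kb with 26 coding genes. Each gene has 3 exons, except Ccl6 and Ccl9 with 4.

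The pair of adjacent cysteines that names the family was found in the reading frame of each gene, exactly once. The windows below show the coding strand from 8 codons before to 8 codons after that pair, taken from the GENCODE M21 coding sequences of GRCm38, and are printed because the pair defines the family and the bases around it differ between members. Capitals mark both cysteine codons. The first of them is codon 32 to 34 in 8 of the genes, codon 50 in Ccl6 and codon 57 in Ccl9, in which the start of the protein is longer.
Ccl2: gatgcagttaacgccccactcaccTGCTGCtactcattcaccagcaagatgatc
Ccl7: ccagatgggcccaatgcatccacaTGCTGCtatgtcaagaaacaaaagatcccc
Ccl11: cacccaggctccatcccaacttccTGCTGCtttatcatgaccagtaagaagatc
Ccl12: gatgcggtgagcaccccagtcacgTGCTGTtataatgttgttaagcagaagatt
Ccl8: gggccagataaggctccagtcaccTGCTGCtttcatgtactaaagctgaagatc
Ccl5: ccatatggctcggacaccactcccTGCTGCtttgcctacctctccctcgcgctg
Ccl9: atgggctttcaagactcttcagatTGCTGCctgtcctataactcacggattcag
Ccl6: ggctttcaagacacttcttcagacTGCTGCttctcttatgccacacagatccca
Ccl3: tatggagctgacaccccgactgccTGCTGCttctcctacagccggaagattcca
Ccl4: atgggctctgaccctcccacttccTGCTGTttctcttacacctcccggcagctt

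Outside that pair the sequences differ. Identity between coding sequences, counted over the whole alignment with gaps, was 34.0% to 65.7%. Within a group the median over 20 pairs of genes was 53.4%, and between the groups it was 46.9% over 25 pairs. Ccl7 was closest to Ccl11 (65.7%), Ccl3 to Ccl4 (65.6%), Ccl8 to Ccl12 (64.4%) and Ccl6 to Ccl9 (63.7%). Ccl5 was closest to Ccl3 (59.9%), and Ccl2, whose coding sequence of 148 codons is the longest, to Ccl12 (47.5%). At the level of transcripts, 6 of the 10 genes shared no stretch of 31 bases with any other gene. The lowest share of such stretches found in 1 gene alone was 0.963, in Ccl9, so each member could be told from the other genes over nearly all of its length.

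**Figure D1:**
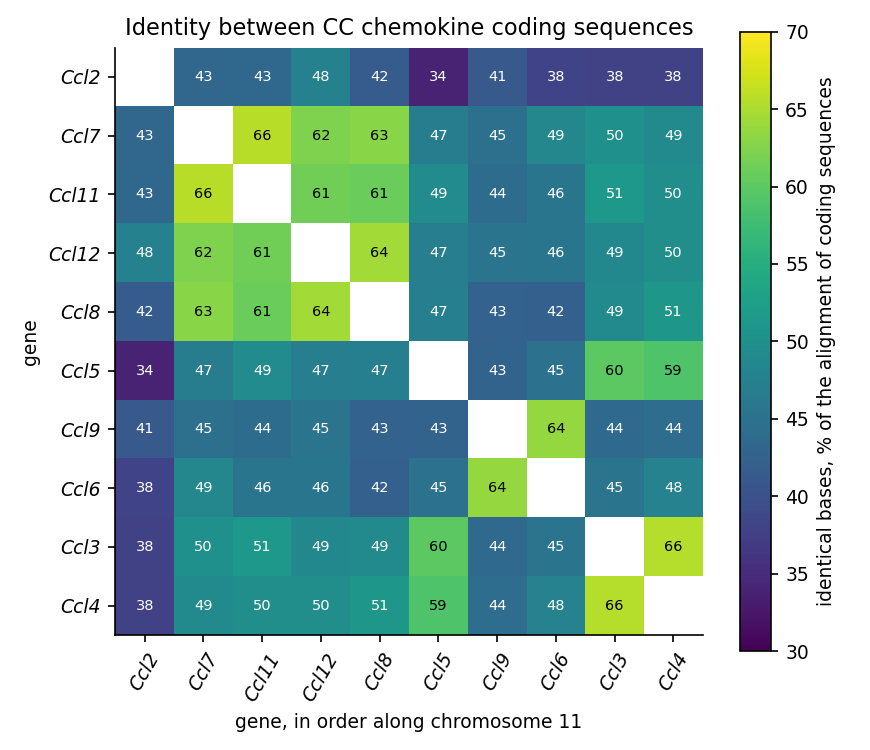
Percent of identical bases between the coding sequences of each pair of CC chemokine genes, with genes on both axes in their order along chromosome 11 and colour giving the percentage. The highest values, 63.7% to 65.7%, lie in the pairs Ccl7 and Ccl11, Ccl3 and Ccl4, Ccl8 and Ccl12, and Ccl6 and Ccl9.

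The values behind each gene were 1 mean over the 6 libraries, called baseMean and given in normalized counts, the log2 fold change of the groups, the standard error (SE) of that change and an adjusted p. The values of single libraries were not analysed here, so no SD over mice and no overlap of samples can be given, and depth per library is unknown. Level means below, in young and in aged mice, were worked out from baseMean and the fold change. Intervals are 95% intervals of the log2 fold change from its SE. With nothing known of each library, the p-values speak only for these 6 samples and for the spread that DESeq2 modelled from them. The sign of the fold change is not stated in the table and was taken from the study's counts of higher and lower genes, so each direction rests on that reading.

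By level per kilobase of the longest transcript, the mean over all libraries was highest for Ccl8, followed by Ccl6, Ccl11, Ccl12, Ccl9, Ccl2, Ccl7, Ccl3, Ccl4 and Ccl5. In young mice Ccl6 led with 153 normalized counts per kilobase, ahead of Ccl11 with 147 and Ccl12 with 123. In aged mice Ccl8 led with 579, ahead of Ccl6 with 300.3 and Ccl11 with 199.9. Ccl8 had only 43.8 per kilobase in young mice, below Ccl9 with 71.8. The lowest levels in young mice were those of Ccl5 with 11.7, Ccl3 with 14.2 and Ccl4 with 18.4 per kilobase. Whether neighbours in this order differ beyond the spread of the libraries cannot be judged from group means.

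**Figure D2:**
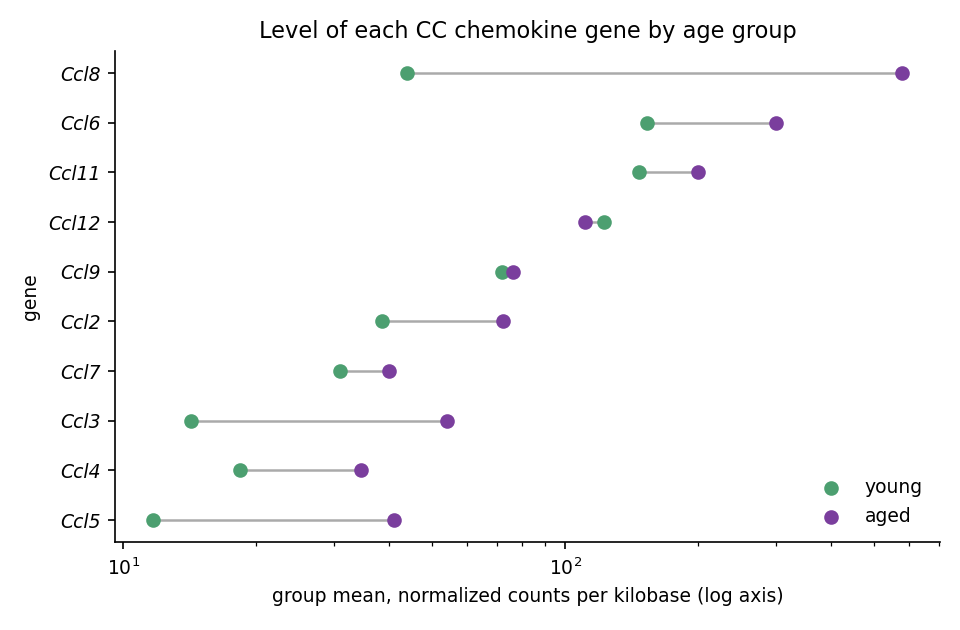
Mean level of each CC chemokine gene in young and aged mice, in normalized counts per kilobase of transcript on a log axis, 1 point per age group and genes ordered by their mean over both. Ccl8 moved from 43.8 to 579 per kilobase, and Ccl12 was the only gene with a lower mean in aged mice, 111 against 123.

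Summed over the 10 genes, the level went from 780 to 1436 normalized counts, a ratio of 1.84. The share of that sum held by Ccl8 was 2.87% in young and 20.6% in aged mice. Ccl6 held 28.2% and 30.1%, whereas the share of Ccl9 was 27.6% in young and 16.0% in aged mice. The 10 genes together were a small part of the RNA, 0.00577% of the summed baseMean of all genes.

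Ccl8, also called MCP-2, lies at chr11:82115185-82116799 and is the last gene of its group. Its mean level was 22.4 normalized counts in young and 296 in aged mice. The log2 fold change was 3.72 (SE 0.27, 95% interval 3.19 to 4.26), with an adjusted p of 2.07e-40 from DESeq2. This was the 26th largest rise of the 18636 genes tested. No other member's interval reached it, since the interval of Ccl3, the next in order, ended at 2.66.

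The other genes of the same group changed less. Ccl2, also called MCP-1, had a mean of 42.2 normalized counts in young and 79.4 in aged mice, a log2 fold change of 0.91 (SE 0.36, 0.22 to 1.61). Its adjusted p from DESeq2 was 0.0490, so the call stands at the threshold, and 4 of the 5 alternative settings in the closing section removed it. Ccl7, or MCP-3, which like Ccl2 binds Ccr2, had 24.7 in young and 32.0 in aged mice, with a log2 fold change of 0.37 (SE 0.38, -0.37 to 1.12) and an adjusted p of 0.537. The values for Ccl7 leave both no change and a change of more than 2-fold inside the interval.

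Ccl11, or eotaxin, which attracts eosinophils through Ccr3, was the most abundant gene of this group in young mice before division by length. Its mean was 159 normalized counts in young and 216 in aged mice, with a log2 fold change of 0.45 (SE 0.24, -0.03 to 0.92) and an adjusted p of 0.182. Ccl12, or MCP-5, the other mouse ligand of Ccr2, had 65.8 in young and 59.5 in aged mice. Its log2 fold change was -0.15 (SE 0.33, -0.78 to 0.49) with an adjusted p of 0.803. In all, 2 of the 5 genes from Ccl2 to Ccl8 rose, and their median log2 fold change was 0.45.

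In the group from Ccl5 to Ccl4, 3 of 5 genes rose, and the median was 0.98. Ccl3, or MIP-1 alpha, had a mean of 10.9 normalized counts in young and 41.3 in aged mice. Its log2 fold change was 1.93 (SE 0.38, 1.19 to 2.66) with an adjusted p of 7.35e-06, the 204th largest rise of all genes tested. Ccl5, or RANTES, which is made in quantity by T and NK cells, went from 7.79 to 27.4 normalized counts. Its log2 fold change was 1.81 (SE 0.42, 0.99 to 2.64) with an adjusted p of 0.000255. The intervals of Ccl3 and Ccl5 overlapped nearly whole, so no order between them is given.

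Ccl4, or MIP-1 beta, the closest relative and neighbour of Ccl3, had 12.1 normalized counts in young and 22.8 in aged mice. The log2 fold change was 0.91 (SE 0.40, 0.12 to 1.70). Its p before adjustment was 0.0234 and its adjusted p 0.0894 from DESeq2, so it did not pass. That fold change equalled the one of Ccl2, which did pass, and the SE of Ccl4 was the larger of the pair. The intervals of Ccl3 and Ccl4 overlapped.

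Ccl6 and Ccl9, neighbours separated by 9.2 kb, are rodent chemokines made by myeloid cells, and Ccl9 is also called MIP-1 gamma. Ccl6 had a mean of 220.0 normalized counts in young and 432 in aged mice, the highest means of the 10 genes before division by length. Its log2 fold change was 0.98 (SE 0.20, 0.58 to 1.37) with an adjusted p of 2.01e-05. Ccl9 had 216 in young and 229 in aged mice, with a log2 fold change of 0.09 (SE 0.19, -0.29 to 0.47) and an adjusted p of 0.803. The SE of Ccl9 was the smallest of the 10 genes, so its interval is narrow, from 0.29 below to 0.47 above no change.

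**Figure D3:**
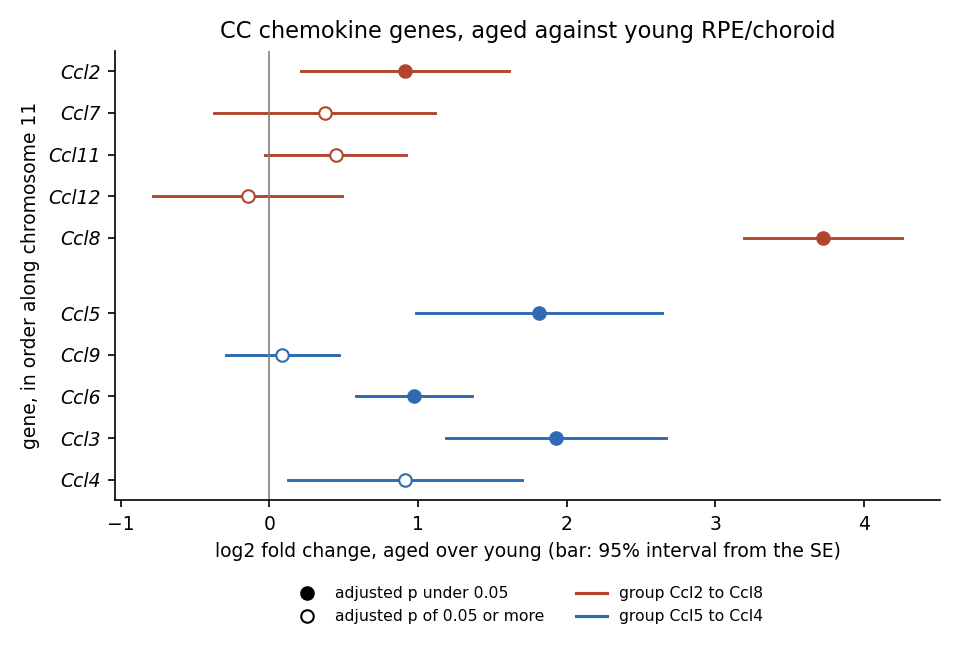
Log2 fold change of each CC chemokine gene, aged over young, with its 95% interval from the SE as a bar, in order along chromosome 11 and coloured by group. Filled points passed an adjusted p of 0.05. The interval of Ccl8, 3.19 to 4.26, lies to the right of all others, and those of Ccl7, Ccl11, Ccl12 and Ccl9 include 0.

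Of the 10 genes, 9 had a positive fold change and 6 had a p under 0.05 before adjustment, and the median log2 fold change was 0.91 with a median SE of 0.34. Over all genes tested the median was -0.01 with a median SE of 0.19. Of the 7319 tested genes with a baseMean within the members' range of 17.5 to 326, 21.6% differed, 599 of them higher and 980 lower in aged mice, and their median was -0.12. Rises of 3 members, Ccl8, Ccl3 and Ccl5, were also at least 1 on the log2 scale, as were those of 3.65% of all genes tested. Over all genes 2100 were higher and 1849 lower. Centring the fold changes on the median of abundant genes, a shift of 0.06, turned that split to 1650 higher and 2289 lower, with Ccl8, Ccl3, Ccl5 and Ccl6 still higher. Ccl3, Ccl5, Ccl8 and Ccl11 are also among the secretory markers that the study showed from these same samples, and how it selected them is not stated in the sources used here.

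Small changes were harder to call at low levels. The baseMean of 4 members, Ccl3, Ccl4, Ccl5 and Ccl7, was under 30, and among all genes under 30 the smallest log2 fold change that passed was 0.94 in size. Over the members' whole range of baseMean it was 0.42. The log2 fold changes of Ccl4 and Ccl7 are below the smallest that passed among genes under 30. That smallest value is not a limit of detection, and an absence of change is not shown.

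**Figure D4:**
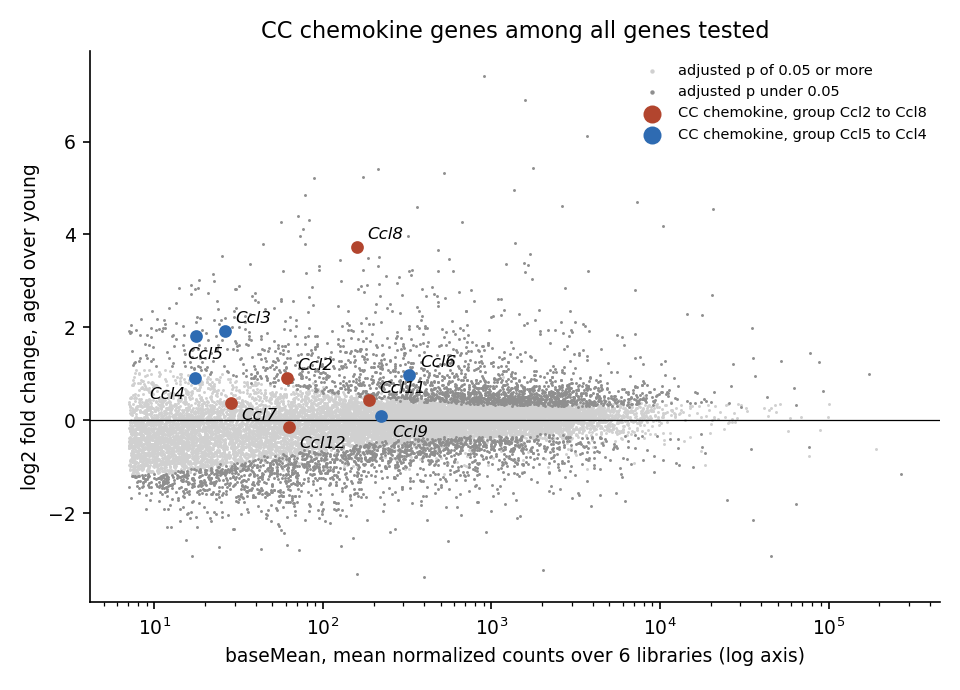
Log2 fold change, aged over young, against baseMean in normalized counts on a log axis, for the 18636 genes tested as grey points (dark where the adjusted p was under 0.05) and the 10 CC chemokine genes in colour. Ccl8 stands at 3.72 with a baseMean of 159, and Ccl4, Ccl5, Ccl3 and Ccl7 lie at the low end, under 30.

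Close relatives did not always have like values. Ccl8 and Ccl12, which are 64.4% identical and 11.8 kb apart, differed in log2 fold change by 3.87, and their intervals did not overlap. Ccl6 and Ccl9, which are 63.7% identical, differed by 0.89, and their intervals, 0.58 to 1.37 and -0.29 to 0.47, did not overlap either. The intervals of Ccl7 and Ccl11, of Ccl3 and Ccl4 and of Ccl2 and Ccl12 overlapped. A test of these differences needs the values of each library and was not run.

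For Ccl8 and Ccl12, the pair that differed most, the 250 bases before the start of each gene are printed 5′ to 3′ from RefSeq on GRCm38.p6. The sequence of Ccl8 is chr11:82114935-82115184 on the plus strand and that of Ccl12 is chr11:82101595-82101844 on the plus strand. Capitals mark TATAAA, the TATA box letters, searched on both strands.
Ccl8: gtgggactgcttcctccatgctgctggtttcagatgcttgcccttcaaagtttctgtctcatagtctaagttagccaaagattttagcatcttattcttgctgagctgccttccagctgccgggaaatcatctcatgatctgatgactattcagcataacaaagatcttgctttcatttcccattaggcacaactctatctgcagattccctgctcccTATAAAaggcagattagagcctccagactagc
Ccl12: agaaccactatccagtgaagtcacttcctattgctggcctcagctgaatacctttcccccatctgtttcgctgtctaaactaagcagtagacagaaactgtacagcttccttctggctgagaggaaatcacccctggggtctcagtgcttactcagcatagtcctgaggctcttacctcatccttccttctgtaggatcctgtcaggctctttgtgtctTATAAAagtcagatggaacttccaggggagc

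Both of these promoters hold TATAAA on the gene's strand at nearly the same place, from base -32 to -27 in Ccl8 and from -31 to -26 in Ccl12, counted from the gene's start. The log2 fold changes were 3.72 for Ccl8 and -0.15 for Ccl12, and a part of these promoters in that difference was not tested.

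For Ccl6 and Ccl9 the same 250 bases are chr11:83593088-83593337 on the minus strand for Ccl6 and chr11:83578637-83578886 on the minus strand for Ccl9. Capitals mark TATAAA or the NF-kB letters, taken here as GGG and CC with any 5 bases between them, on either strand.
Ccl6: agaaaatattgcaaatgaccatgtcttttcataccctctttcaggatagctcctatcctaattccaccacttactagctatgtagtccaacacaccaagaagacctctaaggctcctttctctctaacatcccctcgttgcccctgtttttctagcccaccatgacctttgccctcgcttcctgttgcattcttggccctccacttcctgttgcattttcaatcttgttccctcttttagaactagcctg
Ccl9: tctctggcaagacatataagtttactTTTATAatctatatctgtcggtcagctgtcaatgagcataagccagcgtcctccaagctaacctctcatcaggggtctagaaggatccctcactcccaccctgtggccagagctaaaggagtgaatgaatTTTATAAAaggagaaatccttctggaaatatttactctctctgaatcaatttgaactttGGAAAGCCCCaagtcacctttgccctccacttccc

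The promoter of Ccl6 holds none of the searched letters, whereas that of Ccl9 holds TATAAA 3 times, with a pair of the matches overlapping, and the NF-kB letters from base -35 to -26 on the other strand. TGANTCA, the AP-1 letters, also occurs in Ccl9, from -53 to -47. Of the 10 genes, 5 matched the RefSeq promoter table: Ccl3, Ccl6, Ccl8, Ccl9 and Ccl12. TATAAA occurred in 3 of these 5 and in 12.4% of all 32851 promoters of this length. The NF-kB letters occurred in 1 of 5 and in 45.8% of all promoters, and TGANTCA in 1 of 5 and in 6.75%. TTCNNNGAA, the STAT letters, was also searched and occurred in 0 of 5 and in 7.02% of all promoters. A match is a run of letters only and does not show a site in use.

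Of 14 other CC chemokine genes, 13 were in the table, and 6 of them, Ccl19, Ccl20, Ccl21a, Ccl21c, Ccl26 and Ccl27b, were listed at 0. Another 4, Ccl1, Ccl17, Ccl21b and Ccl22, were too low for an adjusted p. Of the 3 that were tested, 1 passed and it fell. Ccl24, a second eotaxin that like Ccl11 binds Ccr3, went from 24.8 normalized counts in young to 9.75 in aged mice, a log2 fold change of -1.35 (SE 0.44) with an adjusted p of 0.0138. Ccl25 and Ccl27a, with log2 fold changes of -0.28 and -0.36, did not pass. Ccl22, a ligand of Ccr4, had a log2 fold change of 1.28 (SE 0.45) at a baseMean of 4.62 and no adjusted p.

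Of 13 receptor genes of the family, signalling and decoy, 9 were tested, 2 were higher and 3 lower in aged mice, and the median log2 fold change was -0.46. Ccr2, the receptor of Ccl2, Ccl7 and Ccl12, went from 487 to 733 normalized counts (log2 fold change 0.59, SE 0.16, adjusted p 0.00329). Ccr1, which binds Ccl3 and Ccl5 among others, went the other way, from 155 to 101 (-0.61, SE 0.21, adjusted p 0.0251). Ccr2 and Ccr1, whose ligands include genes that rose, thus went in opposite directions.

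Ccr8, the mouse receptor of Ccl8, had a baseMean of 0.353 and Ccr3, the receptor of Ccl11, one of 6.90, both too low for an adjusted p. Ccrl2, an atypical receptor of the family, rose by 0.59 on the log2 scale (SE 0.20, adjusted p 0.0193). Ccr9, the receptor of Ccl25, fell by 1.08 (SE 0.35, adjusted p 0.0149), and Ackr4, a scavenging receptor listed under its older symbol Ccrl1, fell by 0.82 (SE 0.21, adjusted p 0.000980).

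Of 19 genes that induce or restrain CC chemokine transcription, 14 were tested, 5 rose and none fell, with a median log2 fold change of 0.36. Those that rose were the cytokines Tnf (1.60, SE 0.36), Il1b (1.43, SE 0.33) and Il1a (1.11, SE 0.36), and the NF-kB subunits Relb (0.59, SE 0.18) and Nfkb2 (0.44, SE 0.16), of which Nfkb2 lost its call after centring. Tnf had 15.3 normalized counts in young and 46.2 in aged mice, a level near that of Ccl3. Il6, Ifng, Ifnb1, Il4 and Il13 were too low for an adjusted p.

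**Figure D5:**
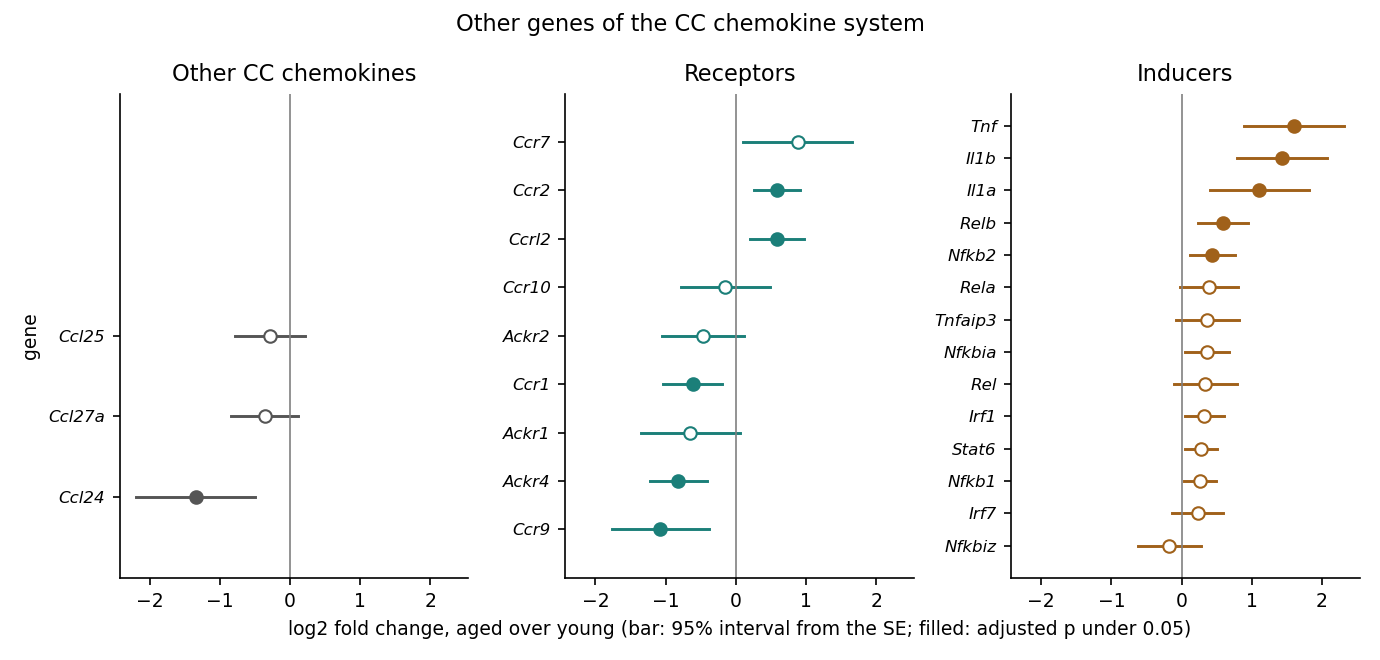
Log2 fold change, aged over young, with its 95% interval from the SE, for the tested genes among the other CC chemokines, the receptors and the inducers, 1 panel each. Filled points passed an adjusted p of 0.05. Receptors fall on both sides of 0, from -1.08 for Ccr9 to 0.88 for Ccr7, whereas 13 of the 14 inducers lie above 0.

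For leukocytes that make or follow these chemokines, several marker lists had a higher summed level in aged mice. That of the monocyte list, given below, was lower, and those of the eosinophil and dendritic cell lists changed little. Of all genes tested, 11.3% were higher and 9.92% lower in aged mice. Of 15 macrophage markers, all tested, 11 rose and 2, Cd163 and Lyve1, fell, with a median log2 fold change of 1.21, and their summed level went from 15705 to 36538 normalized counts. The most abundant of them were Csf1r, with a log2 fold change of 0.37, and C1qa, with 1.92. All 8 mast cell markers rose (Cma1 and Cpa3 led in level; sum 428 to 2268), as did 11 of 12 tested T and NK cell markers (Cd4 and Lck led; sum 236 to 914). Of 5 tested neutrophil markers 2 rose, S100a9 and S100a8, and the sum went from 156 to 418. In tissue RNA more cells of a type and more RNA per cell cannot be told apart. The part of these leukocyte markers in the rise of Ccl8, Ccl3, Ccl5, Ccl6 and Ccl2 was not tested.

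The other marker lists held rises and falls. Of 5 monocyte markers 1, Ly6c2, rose by 1.51 on the log2 scale (SE 0.41), from 12.2 to 34.7 normalized counts, and 1, F13a1, fell. Plac8 was next to F13a1 in level, and the sum, most of it from these 2 abundant genes, went from 1516 to 815. Of 5 dendritic cell markers, led by Zbtb46 and Clec9a, 2 rose, and the sum was 765 and 774. Among 6 tested B and plasma cell markers only Jchain rose, with Cd79b the next in level and a sum of 223 and 448. The single tested eosinophil marker, Il5ra, did not pass, Prg2 was next in level, and the sum was 10.4 and 11.6. Of 7 fibroblast markers 4 fell, among them Col1a2 and Col1a1, and 1 rose. Endothelium markers, led by Kdr and Vwf, gave 1 rise and 1 fall in 8, rod photoreceptor markers, led by Sag and Gnat1, none in 5, and RPE markers, led by Rgr and Rpe65, 2 rises in 6. No marker on these lists was listed at 0, and the defining RPE markers Rgr and Rpe65 were among the abundant genes, with a baseMean of 92190 and 43745. The rod genes Sag and Gnat1 had a baseMean of 13164.5 and 12333.6 (SE of the log2 fold change 0.39 and 0.42). RNA of the neural retina was therefore present as well.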

How the data were processed

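RPE/choroid RNA of 3 young and 3 aged mice was depleted of ribosomal RNA and made into stranded libraries. The authors used BBDuk for trimming, STAR for alignment against the Ensembl transcripts of GRCm38 and Sailfish for abundance, which they turned into counts normalized by the total count. The authors compared the groups with DESeq2 on what they call read counts. Their deposited baseMean is a signal in normalized counts, averaged by the authors over the 6 libraries. Deposited fold changes and SEs are log2 values from the authors' fit. The Wald score deposited with them differed from the quotient of fold change and SE by at most 0.332%. The p-value and its Benjamini-Hochberg adjustment over 18636 genes are values that the authors deposited from DESeq2. No column (0) named a single sample, so no test was rerun and the depth per library is unknown here.

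The deposited sign, read as young over aged, was reversed, so positive values are higher in aged mice. With 3 libraries a group, the young level is 2 baseMean / (1 + fold) and the aged level is that times the fold, where fold is aged over young. Levels per kilobase used the longest transcript of each gene in GENCODE M21 (GRCm38). For Ccl2 and Ccl5 that transcript, of 1096 and 668 bases, is longer than the coding transcript, of 813 and 532 bases. Their levels per kilobase are thus lower than by the coding transcript, and their places in the order depend on that choice. Intervals are 1.96 SE to each side. The median SE was 0.24 among genes below a baseMean of 2 that had a fold change, against 0.43 in tested genes under 30, as shrinkage of low genes towards 0 would give, but shrinkage is not stated in the sources used here. If present, changes of low genes are understated. The young and aged levels worked out from those fold changes would then also lie too close together, as would the sums and shares built on them.

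The members, gene lists and tests were chosen with earlier results of these data known. A few genes of the receptor, inducer and rod photoreceptor lists are not reported here and are in no count of those lists. All members are named. Of the other CC chemokines, receptors and inducers, the genes that passed are named, and of each marker list the 2 most abundant, with Ccl22, Ccl25, Ccl27a, Ccr3, Ccr7, Ccr8, Ly6c2, Cd163 and Lyve1 singled out after their values were seen. Coding sequences were aligned globally (Biopython 1.88), promoters came from the RefSeq table of GRCm38.p6, and tables used pandas 2.3.3 and SciPy 1.17.1 in Python 3.11.15. The calling code was tested on simulated data. Alternatives were a threshold of 0.01, a log2 fold change of at least 1, no filter on low genes, a baseMean of at least 30, and centring on the median of genes with a baseMean of at least 100.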

Additional observations from a re-analysis of the deposited data

How the results depend on the processing

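Of the 5 members called, 3 (Ccl3, Ccl5 and Ccl8) also had a log2 fold change of at least 1. With the adjustment over genes with a baseMean of at least 30, 6 members kept an adjusted p and 3 were called, Ccl2, Ccl6 and Ccl8, since Ccl3 and Ccl5 lie under that minimum. At 0.01, without a filter on low genes and after centring, 4 were called, and Ccl2 was the one lost (adjusted p 0.0686 without the filter and 0.0714 after centring). No member changed direction, but these settings could hardly alter it. All except centring left the fold changes as they were, and centring moved every gene by the same amount. Over all genes, 2520 were called at 0.01 and 1542 with a log2 fold change of at least 1, against 3949. Of the other CC chemokines, 0 were called at 0.01 or with a baseMean of at least 30, and 2 without the filter, which added Ccl22, against 1; by DESeq2, 1 of the 3 tested, Ccl24, had an unadjusted p under 0.05, as did Ccl22, which has no adjusted p. Of the receptors, 2 were called at 0.01 and 1 with a log2 fold change of at least 1, against 5. Of the inducers, 3 were called at 0.01, 4 after centring, which removed Nfkb2, and 3 with a log2 fold change of at least 1, against 5. In the order by level, 4 of the 10 members kept their rank without division by length. The log2 ratio of the summed level, 0.88, was 0.84 without Ccl6, 0.82 after centring and 0.59 without Ccl8, a sum chosen after seeing the data. No paired analysis was possible because the deposited table has no columns for single libraries, and for the same reason leaving out each replicate in turn was not run.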
